A study of Mus musculus with 24 samples.

Results

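The genes described here are 38 mouse genes for making ribosomes, listed by name: subunits of RNA polymerase I, the proteins of the small nucleolar ribonucleoproteins (snoRNPs), assembly factors of the small and the large ribosomal subunit, abundant proteins of the nucleolus, and Srm, the spermidine synthase gene. Of the 38, 35 were measured by a probe set with a single gene symbol, out of 17097 genes so measured. Tsr1, Gnl3 and Mybbp1a had no such probe set and were not analysed here. Expression was measured on 24 arrays, 8 of a cell line and 16 of primary tumours. The cell line, BKO408, derives from the preB-ALL (leukaemia of B-cell precursors) of mice that lack Blnk, a signalling adaptor of the pre-B-cell receptor, and grows in RPMI1640 medium with IL-7. On 4 arrays BKO408 cells carried a LAP retrovirus, and on 4 arrays they did not. LAP is the activating isoform of the transcription factor C/EBPβ, which the Cebpb gene encodes. Mice with a LAP transgene gave 4 B-ALL, called LAP B-ALL here, and 4 preB-ALL, called LAP preB-ALL. Homozygous Blnk knockouts gave 3 preB-ALL with the LAP transgene, called LAP/Blnk tumours, and 5 preB-ALL without it, called Blnk tumours. Both groups of BKO408 cells and the LAP/Blnk and Blnk tumours therefore share the loss of Blnk, and the cell line is a single line. The sources used here do not give the transgene's promoter, the age of the mice, the tissue sampled or the treatment of control cells. Nor do they state that arrays of 1 group came from separate cultures or animals, so p-values measure only the spread between these samples, which may be technical.

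Ribosomes are built in the nucleolus. RNA polymerase I makes a long precursor RNA there, snoRNPs modify it, and assembly factors fold it, cut it and load ribosomal proteins onto it in a small-subunit and a large-subunit particle. Genes for these factors are classical targets of the transcription factor Myc, which binds the sequence CACGTG with its partner Max, and they are generally high in growing lymphoid cells and leukaemias. C/EBP proteins bind palindromes of the type TTGCGCAA and looser forms of it.

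Promoters are shown for the members with the largest rises with LAP, and for Ddx21 as the member that fell. The Ddx21 window was chosen after its values were seen. The sequences are RefSeq windows of 300 bases, from 250 bases before to 50 bases after the gene start, on the assembly GRCm38.p6. They lie at chr9:20887925-20888224 on the plus strand for Ppan, chr7:45830740-45831039 on the minus strand for Grwd1, chr1:34439579-34439878 on the plus strand for Imp4 and chr10:62602249-62602548 on the minus strand for Ddx21. Each is written 5′ to 3′ along the gene, and capitals mark CACGTG and TTNNGNAA, read on both strands.
Ppan: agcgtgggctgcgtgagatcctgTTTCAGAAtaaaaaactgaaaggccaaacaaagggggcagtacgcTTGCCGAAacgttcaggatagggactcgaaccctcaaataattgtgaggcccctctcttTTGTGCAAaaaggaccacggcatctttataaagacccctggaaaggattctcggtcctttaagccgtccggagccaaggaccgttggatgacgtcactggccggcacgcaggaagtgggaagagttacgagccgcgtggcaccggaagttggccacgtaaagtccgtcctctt
Grwd1: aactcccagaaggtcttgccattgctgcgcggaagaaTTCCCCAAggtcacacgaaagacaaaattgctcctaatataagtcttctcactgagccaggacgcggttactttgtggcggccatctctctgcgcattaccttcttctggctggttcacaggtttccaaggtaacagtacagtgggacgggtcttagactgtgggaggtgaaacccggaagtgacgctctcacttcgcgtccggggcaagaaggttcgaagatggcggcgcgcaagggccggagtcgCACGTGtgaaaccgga
Imp4: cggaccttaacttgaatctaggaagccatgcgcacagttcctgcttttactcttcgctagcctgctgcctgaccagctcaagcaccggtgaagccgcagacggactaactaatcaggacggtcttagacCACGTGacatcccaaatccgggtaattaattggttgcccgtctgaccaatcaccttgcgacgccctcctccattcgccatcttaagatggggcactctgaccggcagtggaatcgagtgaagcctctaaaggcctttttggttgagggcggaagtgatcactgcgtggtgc
Ddx21: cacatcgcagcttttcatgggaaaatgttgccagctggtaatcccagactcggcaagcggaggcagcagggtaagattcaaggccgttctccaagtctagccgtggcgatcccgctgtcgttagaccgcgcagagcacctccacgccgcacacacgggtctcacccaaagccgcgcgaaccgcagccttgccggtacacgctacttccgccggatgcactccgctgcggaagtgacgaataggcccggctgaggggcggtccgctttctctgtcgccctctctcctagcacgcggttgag
The Ppan window held 3 matches to TTNNGNAA and no CACGTG. Grwd1 held 1 of each, Imp4 held 1 CACGTG alone, and Ddx21 held neither.

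A window was found for 33 of the 38 members, and Srm, Npm1, Fbl, Rrp12 and Bop1 had none in the table used. CACGTG lay in the windows of 8 of these 33 genes (24.2%), against 8.09% of all 27025 genes with a window of the same length and 8.91% of protein-coding genes. The 8 were Grwd1, Imp4, Nle1, Nop2, Pes1, Wdr43, Mybbp1a and Tsr1, and their matches lay between 121 bases before and 40 bases after the gene start. TTGCGCAA was in 0 of 33 member genes and 0.207% of all genes. TTNNGNAA, of which TTGCGCAA is a special case, was in 7 of 33 (21.2%), against 44.1% of all genes and 41.4% of protein-coding genes. A match describes letters in this window and is not a binding site.

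All expression values below are deposited log ratios, taken as log2, of a sample to the median over the 8 cell-line arrays or, for a tumour, over the 16 tumours. They carry no absolute level, so members cannot be ranked by abundance, a tissue cannot be checked by whether its markers are present, and cells and tumours have separate zero points. Differences were tested with limma over all 17097 genes, and a gene passed at a Benjamini-Hochberg adjusted p below 0.05. Cebpb stood at 0.11, 0.24, 0.03 and -0.01 in BKO408 cells with LAP, against -0.14, 0.01, -0.05 and -0.06 in control cells, and which part of the gene its probe set covers is unknown here. Among tumours Cebpb lay between -4.50 and -1.94 in the 5 Blnk tumours. The tumour labelled LAP B-ALL 4 lay in that range at -3.11, while the other LAP transgenic tumours lay between -1.41 and 0.90. Of both knockout groups, Blnk stood at 0.42, 0.52 and 1.23 in the tumours with LAP and at -0.53, -0.68, 0.94, -0.17 and -0.55 in those without it, against 0.01, 1.45, -0.06 and -0.01 in LAP preB-ALL. These ranges overlapped, and 4 of 5 Blnk tumours lay below all LAP preB-ALL. All LAP/Blnk tumours, although knockouts, lay above LAP preB-ALL 1, 3 and 4. Whether the probe set covers the deleted part is unknown here. Markers of erythroid cells (7 of 10 measured) had a median of 4.85, 4.87, 5.42 and 1.23 in LAP B-ALL 1 to 4 and of 4.91 in LAP preB-ALL 4, against -0.55 to 0.48 in the other tumours. Granulocyte markers (12 of 12 measured) had their highest median, 3.38, in Blnk tumour 5, and medians of 1.37 to 2.63 in LAP B-ALL and 2.53 in LAP preB-ALL 4.

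In BKO408 cells most ribosome biogenesis genes were higher with LAP. Of 35 members 26 rose and 1, Ddx21, fell, while 10.5% of all genes rose and 11.8% fell. The values of LAP and control cells did not overlap, with LAP higher, for 26 members, against 12.3% of all genes. The median member differed by 0.18 on the log2 scale, which is 1.14-fold, and the median of all genes by -0.01. The members that rose did so by 1.07-fold to 1.39-fold, so the changes were small and rested on a small spread: the median SD of a member was 0.03 in LAP cells and 0.05 in control cells (n = 4 each). The members' median was 0.09, 0.07, 0.10 and 0.08 in the LAP arrays, against -0.09, -0.11, -0.10 and -0.08 in the control arrays. This comparison and the 26 rises were known in part when the members were listed, so the count describes these arrays and is not independent evidence. The calls rest on the spread of the cell arrays alone: with all 24 arrays in 1 fit no member passed, and 0.0936% of all genes rose and 0.0292% fell, while the median member still differed by 0.18.

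**Figure D1:**
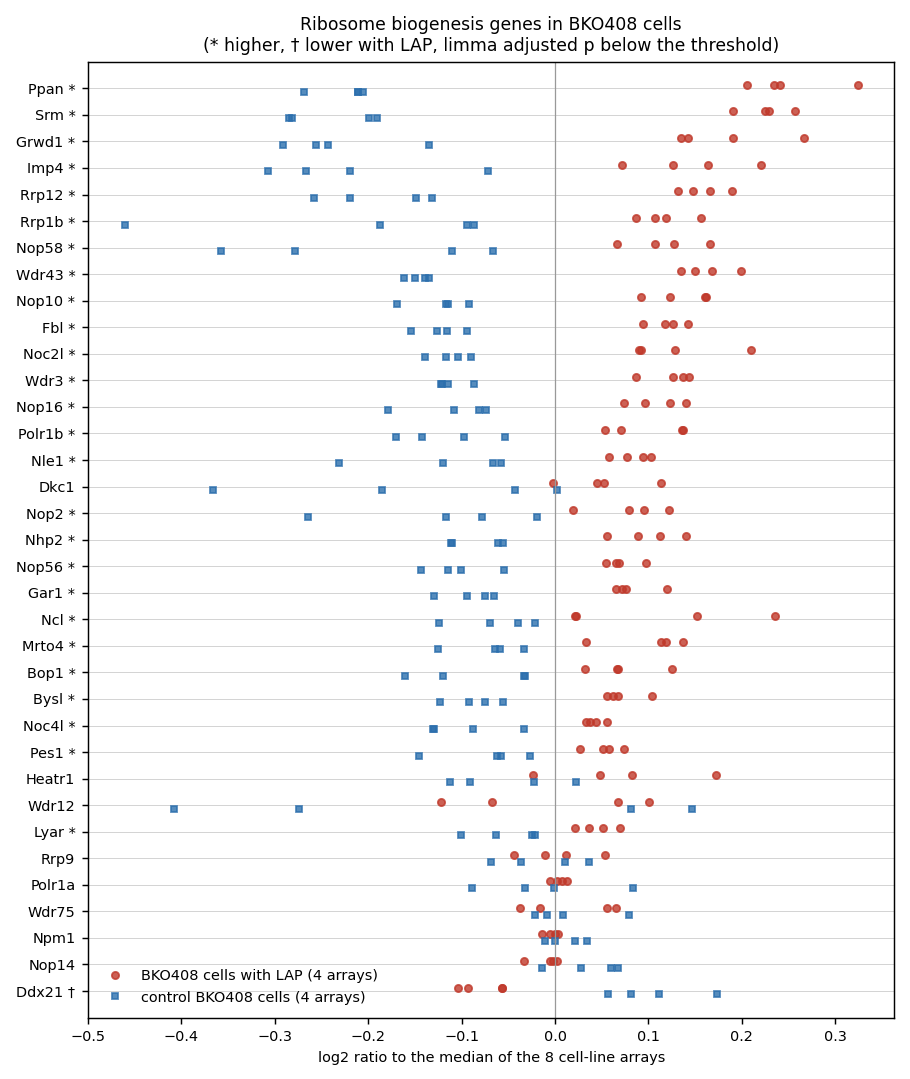
Log2 ratio of each of the 35 measured members in the 4 arrays of BKO408 cells with LAP (circles) and the 4 arrays of control cells (squares), relative to the median of the 8 arrays, with genes ordered by their difference. Stars mark the 26 members that rose and the dagger Ddx21, the 1 that fell; Ppan at the top differed by 0.48 and Ddx21 at the bottom by -0.18.

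The largest rise was that of Ppan, an assembly factor of the large subunit. Ppan stood at 0.23, 0.21, 0.24 and 0.32 in LAP cells, against -0.21, -0.21, -0.27 and -0.21 in control cells. All LAP arrays lay above all control arrays, with a difference of 0.48 ± 0.03 (SE; 1.39-fold; limma adjusted p = 9.28e-06). Srm makes spermidine, a polyamine that binds RNA, and is the member with no direct part in ribosome assembly. It stood at 0.23, 0.23, 0.26 and 0.19 in LAP cells, against -0.20, -0.28, -0.28 and -0.19 in control cells, again without overlap. Its difference was 0.46 ± 0.03 (1.38-fold; limma adjusted p = 1.04e-05).

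Grwd1, a chaperone that delivers a ribosomal protein to the large subunit, stood at 0.14, 0.14, 0.27 and 0.19 in LAP cells, against -0.24, -0.29, -0.26 and -0.14 in control cells. It differed by 0.42 ± 0.04 (SE; 1.33-fold), and 2 further Grwd1 probe sets rose by 0.27 and 0.28. Imp4, a protein of the small-subunit processome that works beside the U3 snoRNP, stood at 0.07, 0.16, 0.13 and 0.22 in LAP cells, against -0.22, -0.31, -0.27 and -0.07 in control cells. Its groups did not overlap and differed by 0.36 ± 0.05 (1.29-fold), while its other probe set rose by 0.13.

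By role, rises were found at every step. Among RNA polymerase I subunits Polr1b rose by 0.22 ± 0.04 (SE). Polr1a, the largest subunit, differed by 0.01 and did not pass on the probe set used, while 1 of its other probe sets rose by 0.14. Box C/D snoRNPs methylate ribosomal RNA, and all 3 of their measured core proteins rose: Nop58 by 0.32 ± 0.06, the methyltransferase gene Fbl by 0.24 ± 0.03 and Nop56 by 0.17 ± 0.03. Box H/ACA snoRNPs convert uridine to pseudouridine, and Nop10, Nhp2 and Gar1 rose by 0.26, 0.18 and 0.17. Dkc1, the pseudouridine synthase of the same particle, differed by 0.20 and did not pass (limma adjusted p = 0.0831).

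Of 10 small-subunit factors 6 rose. Besides Imp4 these were Rrp12, a late assembly and export factor in yeast (0.35 ± 0.03, SE), the early processome proteins Wdr43 (0.31 ± 0.03) and Wdr3 (0.23 ± 0.03), and Bysl (0.16) and Noc4l (0.14). Heatr1 differed by 0.12 and did not pass (limma adjusted p = 0.102), although its 2 other probe sets rose by 0.18 and 0.20. Rrp9, a protein of the U3 snoRNP, differed by 0.02. Wdr75, another early processome protein, stood at -0.02, 0.07, 0.06 and -0.04 in LAP cells, against 0.01, 0.08, -0.01 and -0.02 in control cells, so the groups overlapped (difference 0.00272, SE 0.04). Nop14 had -0.0020, -0.033, -0.0055 and 0.0020 in LAP cells, against 0.028, -0.014, 0.060 and 0.068 in control cells. These groups overlapped too, and the difference of -0.05 ± 0.03 did not pass.

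Of 11 large-subunit factors 10 rose. Pes1 and Bop1, which form a complex with Wdr12 that is needed to process the precursor of the large subunit, rose by 0.13 ± 0.03 and 0.16 ± 0.04 (SE). Wdr12 itself did not pass, with a difference of 0.11 ± 0.12 and control values of -0.41, 0.08, 0.15 and -0.27. Rrp1b rose by 0.32 ± 0.07, Noc2l by 0.24 ± 0.03, Nop16 by 0.22 ± 0.03, the rRNA methyltransferase gene Nop2 by 0.20 ± 0.05, Nle1 by 0.20 ± 0.04 and Mrto4 by 0.17 ± 0.03. Ppan and Grwd1 complete the 10.

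Of 4 abundant nucleolar proteins 2 rose and 1 fell. Ncl, the gene of nucleolin, rose by 0.17 ± 0.05 (SE) and Lyar by 0.10 ± 0.03, and each call was lost in 6 of 8 fits that left out 1 array. Npm1, the gene of nucleophosmin, had 0.0027, -0.013, 0.00022 and -0.0052 in LAP cells, against 0.034, 0.021, -0.00022 and -0.011 in control cells. Its groups overlapped and it did not pass (difference -0.02). Npm1 has processed copies elsewhere in the genome, so its value is uncertain. Ddx21, an RNA helicase of the nucleolus, stood at -0.09, -0.06, -0.06 and -0.10 in LAP cells, against 0.08, 0.06, 0.17 and 0.11 in control cells. It was lower in LAP cells by the test (difference -0.18 ± 0.03, limma adjusted p = 0.00264). Its other probe set went the opposite way, with a difference of 0.14 (limma adjusted p = 0.0135 over all probe sets), and their mean did not pass. The fall of Ddx21 thus rests on 1 of 2 probe sets.

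Several probe sets were available for 18 members. In cells all probe sets of a gene had the same sign for 16 of these, the exceptions being Ddx21 and Npm1. All 22 further probe sets were positive, and 16 of them passed with LAP higher.

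Of the 30 measured members with a promoter window, all 6 with CACGTG rose, with a median difference of 0.26, and 16 of the 24 without it rose, with a median of 0.17. Of the 7 with TTNNGNAA 7 rose, and of the 23 without it 15 rose. These are counts within a list in which most genes rose, and they were not tested.

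Genes that work beside the members were counted from lists made by gene name, beside 10.5% of all genes that rose and 11.8% that fell. Of 94 further assembly factors 45 rose and 5 fell in LAP cells, with a median difference of 0.11, among them Rpf2 at 0.43 and Ccdc86 at 0.35. The RNA exosome, which trims ribosomal RNA precursors, had 7 of 9 genes higher and 0 lower, with Exosc2 at 0.24 and Dis3 at 0.23. Among 9 other genes of RNA polymerase I and its factors 3 rose and 1 fell, led by Taf1a (0.42) and by the initiation factor gene Rrn3 (0.26). Of 52 genes of ribosomal proteins, the cargo of this pathway, 3 rose and 5 fell, with a median difference of -0.01. The largest were Rps13 at 0.30 and Rpl22 at -0.22, and as many ribosomal protein genes have processed copies their probe sets are uncertain. Of 23 mitochondrial ribosomal protein genes 10 rose and 1 fell, with Mrps18b at 0.38 and Mrps10 at 0.28.

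Lists close to growth control gave mixed counts in LAP cells. Myc rose by 0.21 ± 0.03 (SE) and Mycn, its relative, by 0.38 ± 0.03, each without overlap between groups. Of 10 Myc genes and partners 3 rose and 4 fell, and the largest changes were falls of Mxd4 (-0.56) and Mxd3 (-0.44), which compete with Myc for Max. In polyamine metabolism 2 of 6 other genes rose, Sat1 at 0.23 and Odc1 at 0.19. In nucleotide synthesis 4 of 13 rose and 1 fell, led by Cad at 0.28 and Gart at 0.25. Of 11 translation initiation genes 3 rose and 3 fell, led by Eif5a at 0.29 and Eif5 at 0.25. Cell cycle genes went mostly down: 2 of 28 rose and 16 fell, with Top2a at -0.37 and Ccne1 at -0.36. Of 12 B-lineage markers 1 rose and 7 fell, led by Dntt (-1.91) and Rag1 (-1.32), genes of antigen-receptor gene assembly. Of 12 monocyte and macrophage markers 3 rose, led by Ccr2 (2.25) and Lyz2 (1.53), and of 12 granulocyte markers 2 rose, Mmp8 (0.45) and Prtn3 (0.44), and 1 fell. Of 11 T and NK cell markers 1, Cd28, rose (0.73) and 2 fell, led by Klrb1c (-0.40). The single markers that passed among 7 erythroid and 9 stromal ones, Car2 (-0.23) and Pecam1 (-0.55), fell. The granulocyte, T and NK, erythroid and stromal counts lie near the shares of all genes, 10.5% higher and 11.8% lower. The part of changes in any of these markers in the members' rises was not tested.

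**Figure D2:**
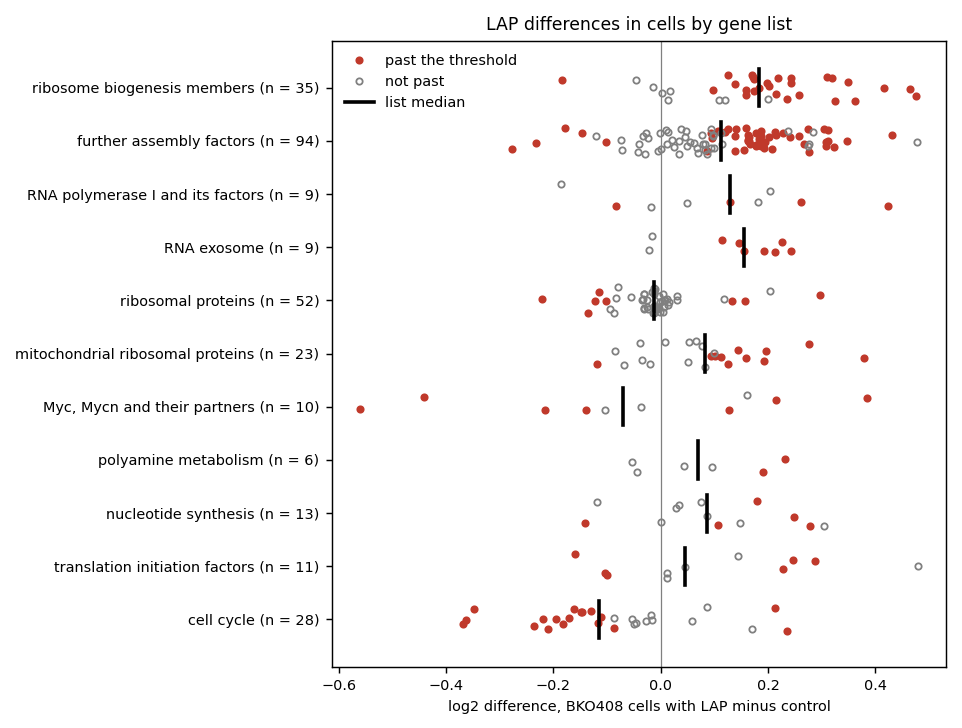
Log2 difference of every measured gene between BKO408 cells with LAP and control cells (LAP minus control, 4 arrays each), by list; filled points passed the limma threshold, open points did not, and bars are list medians. The members' median is 0.18, that of further assembly factors 0.11, that of ribosomal proteins -0.01 and that of cell cycle genes -0.11.

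Across the 16 tumours the members moved together. Over the 595 pairs of members the median Pearson correlation across tumours was 0.697, and 99.8% of pairs were above 0, while over all pairs of genes the median was 0.0186 and 52.1% were above 0. These correlations share the arrays and their scaling and are given as a description. By Pearson r the member nearest to the members' median was Mrto4 (r = 0.94, Spearman rho = 0.93 over 16 tumours), and by Spearman rho it was Pes1 (0.96). The farthest by both was Rrp12 (r = 0.49, rho = 0.47). With the gene itself left out of the median, Rrp1b was the nearest by Pearson r (0.94, against 0.93 for Mrto4). The 8 genes outside the list with the highest correlation to that median were Nob1 (r = 0.97), Nsun2 (0.96), Nifk (0.95), Rrp15 (0.95), Ruvbl1 (0.95), Nat10 (0.94), Atad3a (0.94) and Eif6 (0.94). Of these 8, Nob1, Nifk, Rrp15, Ruvbl1, Nat10 and Eif6 were on the list of further assembly factors, and Nsun2 and Atad3a on no list.

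Blnk tumours and LAP preB-ALL differed more among themselves than LAP B-ALL and LAP/Blnk tumours did. The members' median was -0.02, -0.10, -0.33 and -0.07 in LAP B-ALL 1 to 4 and -0.10, -0.15 and -0.23 in LAP/Blnk tumours 1 to 3. It was 0.57, 0.09, 0.58 and 0.02 in LAP preB-ALL 1 to 4 and 0.59, 0.59, -0.25, 0.25 and -0.28 in Blnk tumours 1 to 5. In Blnk tumour 2 all 35 members were above 0, and in Blnk tumour 5 only 2 were. The median was above 0 in all 4 LAP preB-ALL and below 0 in all LAP B-ALL and LAP/Blnk tumours, while the Blnk tumours lay on both sides of 0. For the LAP B-ALL group the median SD of a member was 0.20 (median gene 0.19), for LAP/Blnk 0.12 (0.16), for LAP preB-ALL 0.34 (0.24) and for Blnk tumours 0.46 (0.21).

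**Figure D3:**
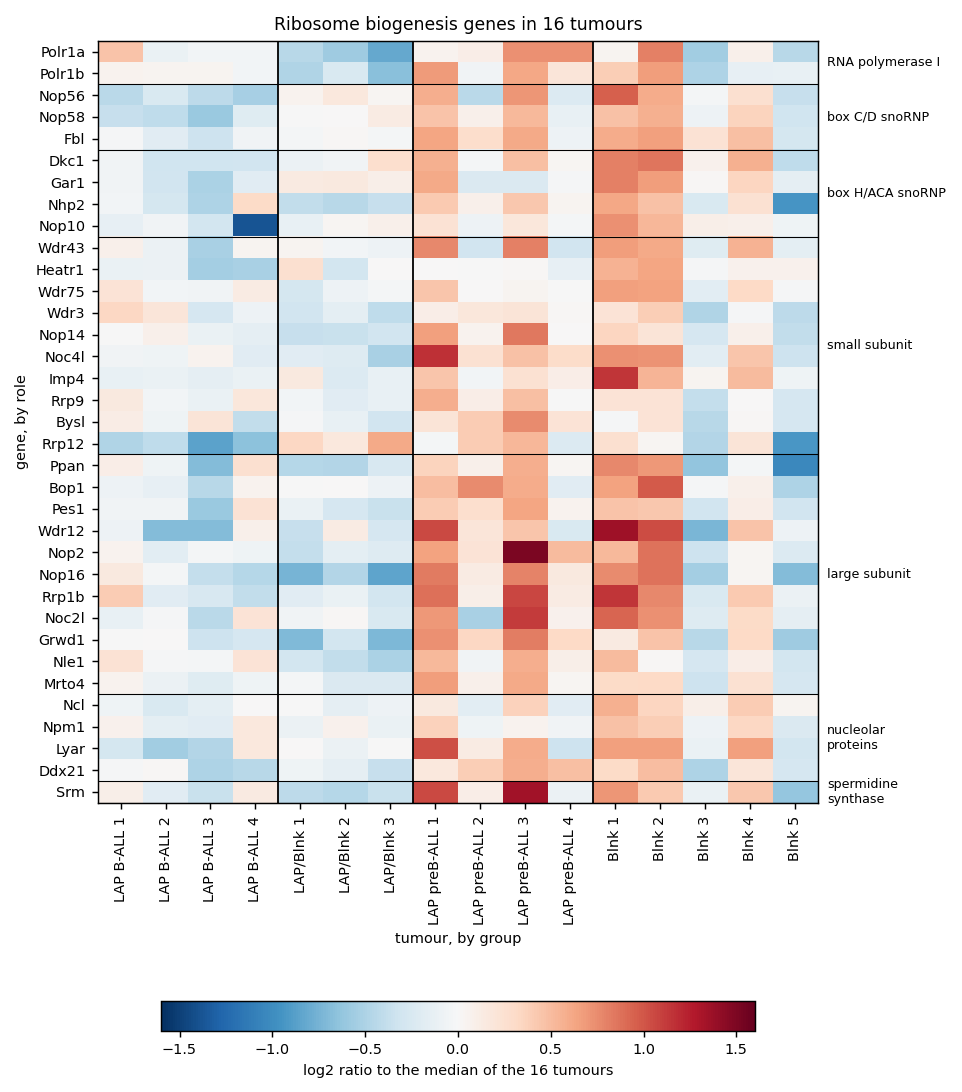
Log2 ratio of each of the 35 measured members (rows, by role) in each of the 16 tumours (columns, by group), relative to the median of the 16 tumours; red is above and blue below it. Blnk tumours 1 and 2 and LAP preB-ALL 1 and 3, with member medians of 0.57 to 0.59, are red over almost all rows, and Rrp12 lies above 0 in all 3 LAP/Blnk tumours.

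In bulk samples fewer cells of a type and less RNA per cell cannot be told apart, and this holds for every tumour value here. Blnk tumour 5, with the highest granulocyte markers, had a member median of -0.28, and LAP preB-ALL 4, with high erythroid markers, had 0.02. The LAP B-ALL tumours, with erythroid medians of 1.23 to 5.42 and granulocyte medians of 1.37 to 2.63, had member medians of -0.33 to -0.02. LAP/Blnk tumours had low erythroid medians of -0.38 to -0.21 and member medians of -0.23 to -0.10. The part of these other cells in the members' values was not tested, and comparisons are given below also without Blnk tumour 5 and LAP preB-ALL 4 together, a choice made after seeing the data.

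Myc and Mycn varied far more than the members. Myc had -0.08, 0.10, -0.58 and 0.01 in LAP B-ALL 1 to 4 and -0.75, -0.27 and 0.04 in LAP/Blnk tumours 1 to 3. Its values were 1.29, 0.06, 1.21 and -0.01 in LAP preB-ALL 1 to 4, against -3.70, 1.41, -0.18, 0.56 and -0.47 in Blnk tumours 1 to 5. It did not pass in any tumour comparison, nor did Mycn. Of the 4 tumours with the highest member medians, Blnk tumour 2 and LAP preB-ALL 1 and 3 thus had Myc at 1.21 to 1.41, and Blnk tumour 1 had Myc at -3.70 and Mycn at 8.20. Mycn was also high in the tumour labelled LAP B-ALL 4 (3.88), LAP/Blnk tumours 1 and 2 (3.45 and 5.55) and Blnk tumours 4 and 5 (3.81 and 1.74), whose member medians ran between -0.28 and 0.25. Over the 16 tumours Myc correlated with the members' median at r = 0.14 (Spearman rho = 0.48). For Mycn these were r = 0.16 and rho = 0.14.

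**Figure D4:**
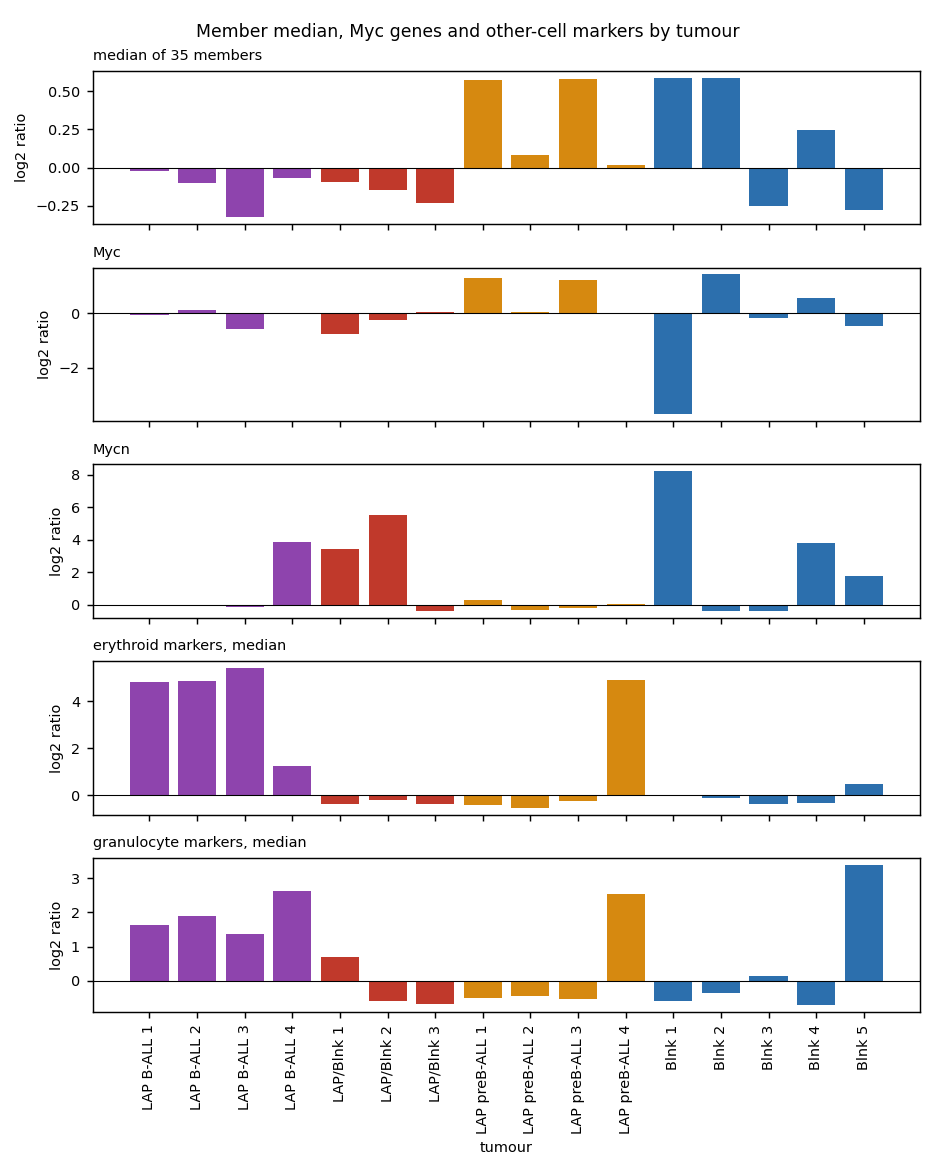
Bars give, for each of the 16 tumours, the median log2 ratio of the 35 members, the log2 ratios of Myc and Mycn, and the median log2 ratios of erythroid and granulocyte markers, each relative to the median of the 16 tumours; colours are the 4 groups. The members' median reaches 0.59 in Blnk tumours 1 and 2, Mycn 8.20 in Blnk tumour 1 and the erythroid median 5.42 in LAP B-ALL 3.

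With the LAP transgene on a Blnk knockout, members were lower on average, and no member passed. Between LAP/Blnk and Blnk tumours 34 of 35 differences were negative, with a median of -0.34 on the log2 scale against -0.02 for all genes. Of all genes 0.0175% passed this comparison, so it called almost nothing anywhere. By limma's unadjusted p below 0.05, 9 members were lower and 0 higher, against 2.91% of all genes lower. The groups did not overlap, with LAP/Blnk lower, for 2 members, Ncl and Nle1, against 2.69% of all genes.

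The largest difference was that of Nop16, a large-subunit factor, at -0.75, -0.47 and -0.84 in LAP/Blnk tumours, against 0.76, 0.87, -0.54, 0.03 and -0.70 in Blnk tumours. Blnk tumours 3 and 5 lay among the LAP/Blnk tumours (difference -0.77 ± 0.34, SE; limma adjusted p = 0.837). Polr1a stood at -0.44, -0.57 and -0.82 in LAP/Blnk tumours, against 0.04, 0.80, -0.56, 0.08 and -0.44 in Blnk tumours (difference -0.59 ± 0.27). Rrp1b stood at -0.18, -0.11 and -0.30 in LAP/Blnk tumours, against 1.15, 0.77, -0.25, 0.42 and -0.09 in Blnk tumours (difference -0.59 ± 0.32). Blnk tumour 3 lay within the range of the LAP/Blnk tumours in all 3 genes, and Blnk tumour 5 in Nop16 and Polr1a. Granulocyte markers had a negative difference in 12 of 12 genes (median -0.57), monocyte and macrophage markers in 11 of 12 (-0.69) and T and NK cell markers in 9 of 11 (-0.49), and B-lineage markers a positive one in 10 of 12 (0.33). Their part in the members' difference was not tested. Without Blnk tumour 5 and LAP preB-ALL 4 the median difference was -0.49 and 0 members passed, beside 0.00585% of all genes higher and 0% lower.

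Rrp12 was the single member with a positive difference (0.54 ± 0.26, SE; limma adjusted p = 0.873). It is the only member on chromosome 19, where 567 other measured genes had a median difference of 0.23 between LAP/Blnk and Blnk tumours and 72.5% were positive, against 44.5% of all genes. Of the 7 further assembly factors on chromosome 19, 6 were positive as well, among them Noc3l (0.89) and Pdcd11 (0.54). Blnk itself lies on chromosome 19 and had a difference of 0.92. The part of the chromosome in the Rrp12 difference was not tested.

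Against LAP preB-ALL, LAP/Blnk tumours were again lower in most members, and 1 passed. The median difference was -0.44 (all genes -0.03), 32 of 35 were negative, and 2.37% of all genes passed in either direction. Grwd1 fell: it stood at -0.70, -0.30 and -0.72 in LAP/Blnk tumours, against 0.73, 0.33, 0.81 and 0.32 in LAP preB-ALL. The groups did not overlap (difference -1.12 ± 0.24, SE; 2.17-fold; limma adjusted p = 0.0304). This call was lost when any of LAP/Blnk tumours 1, 2 and 3 or LAP preB-ALL 1 and 3 was left out singly, with differences of -1.26 to -1.03. It was also lost with the mean of Grwd1's probe sets (-0.77), quantile normalisation, a replicate block or only the groups compared in the fit, where limma's adjusted p ran from 0.0582 to 0.301. With the replicate block 0% of all genes passed, and with only the groups compared 0.234% rose and 0.0585% fell. In the main fit 15 members were lower and 0 higher by unadjusted p, against 8.84% of all genes lower. For 19 members the groups did not overlap, with LAP/Blnk lower, against 8.18% of all genes.

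Nop16 had a still larger difference, at -0.75, -0.47 and -0.84 in LAP/Blnk tumours, against 0.83, 0.13, 0.79 and 0.16 in LAP preB-ALL, also without overlap. It did not pass (difference -1.16 ± 0.35, SE; limma adjusted p = 0.107). Polr1a stood at -0.44, -0.57 and -0.82 in LAP/Blnk tumours, against 0.06, 0.11, 0.73 and 0.73 in LAP preB-ALL (-1.02 ± 0.29, adjusted p = 0.0839). By role, both RNA polymerase I subunits, 8 of 11 large-subunit factors, 6 of 10 small-subunit factors and Srm did not overlap. The same held for 1 of 4 H/ACA proteins, 1 of 4 nucleolar proteins and 0 of 3 box C/D proteins. Differences between roles, some of very few genes, were not tested. Among other lists, the assembly factor genes Noc3l rose (0.83) and Ddx51 fell (-0.78), the cyclin gene Ccnd2 fell (-3.99), and Klrb1c (3.20), a marker of NK cells, and the collagen gene Col1a2 (0.33) rose. Noc3l lies on chromosome 19, where genes other than members had a median difference of 0.32 here. The part of the chromosome in the Noc3l difference was not tested. Erythroid markers had a negative difference in 7 of 7 genes (median -1.65), granulocyte markers in 10 of 12 (-0.24), monocyte and macrophage markers in 10 of 12 (-0.49) and T and NK cell markers in 9 of 11 (-0.61). B-lineage markers were positive in 10 of 12 (1.14) and stromal ones in 8 of 9 (0.57), and the part of all these in the members' difference was not tested. Without Blnk tumour 5 and LAP preB-ALL 4, 2 of 35 members passed as lower, beside 0.678% of all genes, and the median difference was -0.60. This comparison and the one with Blnk tumours share the LAP/Blnk tumours.

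LAP preB-ALL and Blnk tumours, which differ both in the transgene and in Blnk, gave no member past the threshold, and 0.0819% of all genes passed. The median difference was 0.19 (all genes 0.00421), with 24 members positive and 11 negative. By unadjusted p 4 members, Nop14, Rrp9, Bysl and Grwd1, were higher and 0 lower, against 5.50% of all genes higher. No member was without overlap, against 1.72% of all genes with LAP preB-ALL higher. Grwd1 stood at 0.73, 0.33, 0.81 and 0.32 in LAP preB-ALL, against 0.14, 0.46, -0.45, 0.31 and -0.57 in Blnk tumours (difference 0.57 ± 0.21, SE). Nop2 stood at 0.64, 0.22, 1.50 and 0.51 in LAP preB-ALL, against 0.52, 0.87, -0.34, 0.03 and -0.22 in Blnk tumours (0.55 ± 0.26). Bysl stood at 0.20, 0.41, 0.75 and 0.22 in LAP preB-ALL, against -0.02, 0.21, -0.45, 0.01 and -0.27 in Blnk tumours (0.50 ± 0.16). For each the lower LAP preB-ALL lay within the range of the Blnk tumours. B-lineage markers had a negative difference in 11 of 12 genes (median -1.19) and stromal markers in 9 of 9 (-0.55), and erythroid markers a positive one in 7 of 7 (0.90). Their part in the members' difference was not tested. Without Blnk tumour 5 and LAP preB-ALL 4, no member passed and 25 of 35 differences were positive. Of all genes 0.0409% passed as higher there and 0.0643% as lower.

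Between the 2 tumour types of LAP transgenic mice all 35 members were lower on average in LAP B-ALL than in LAP preB-ALL, and none passed. The median difference was -0.44, against -0.03 for all genes, of which 0% passed. By limma's unadjusted p 12 members were lower and 0 higher, against 5.59% of all genes lower, and 8 did not overlap, against 3.37% of all genes. Rrp12 stood at -0.49, -0.40, -0.86 and -0.66 in LAP B-ALL, against -0.03, 0.40, 0.53 and -0.22 in LAP preB-ALL, without overlap (difference -0.77 ± 0.25, SE; limma adjusted p = 0.351). Nop2 stood at 0.06, -0.17, -0.03 and -0.07 in LAP B-ALL, against 0.64, 0.22, 1.50 and 0.51 in LAP preB-ALL, also without overlap (-0.77 ± 0.28). Wdr12 stood at -0.08, -0.69, -0.69 and 0.08 in LAP B-ALL, against 1.06, 0.19, 0.44 and -0.25 in LAP preB-ALL, and its groups overlapped (-0.71 ± 0.40). Erythroid markers lay higher in LAP B-ALL in 7 of 7 genes (median difference 3.04), granulocyte markers in 12 of 12 (1.34) and monocyte and macrophage markers in 12 of 12 (1.28), and their part in the members' difference was not tested. Without Blnk tumour 5 and LAP preB-ALL 4, 3 of 35 members passed as lower, beside 0.807% of all genes, and the median difference was -0.55. Without the tumour labelled LAP B-ALL 4 the median difference was -0.50. There 0 members passed, beside 0.0292% of all genes higher and 0% lower.

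LAP B-ALL against Blnk tumours gave 0 members past the threshold, beside 1.45% of all genes. The median difference was -0.28 (all genes -0.03), with 30 members negative. By unadjusted p 10 members were lower and 0 higher, against 11.4% of all genes lower, and 3, Heatr1, Imp4 and Ncl, did not overlap, against 5.16% of all genes. All 3 box C/D proteins and 3 of 4 H/ACA proteins were among those 10, and 0 of 11 large-subunit factors. Nop56 stood at -0.43, -0.24, -0.42 and -0.53 in LAP B-ALL, against 0.96, 0.59, -0.03, 0.25 and -0.37 in Blnk tumours (difference -0.68 ± 0.27, SE). Nop10 stood at -0.13, -0.06, -0.29 and -1.38 in LAP B-ALL, against 0.74, 0.53, 0.09, 0.08 and -0.06 in Blnk tumours (-0.74 ± 0.24), with the tumour labelled LAP B-ALL 4 far below the others. Wdr12 stood at -0.08, -0.69, -0.69 and 0.08 in LAP B-ALL, against 1.35, 1.05, -0.73, 0.45 and -0.08 in Blnk tumours (-0.75 ± 0.38). Of other lists the assembly factor gene Ccdc86 (-1.13) and the mitotic genes Bub1b (-1.002) and Cdc20 (-0.64) fell. Ccdc86 lies on chromosome 19, where genes other than members had a median difference of -0.12 here. The part of the chromosome in the Ccdc86 difference was not tested. Erythroid markers lay higher in LAP B-ALL in 7 of 7 genes (median difference 4.39), and granulocyte (1.44) and monocyte and macrophage markers (0.87) in 11 of 12 each, which was not tested as a part of the members' difference. Without Blnk tumour 5 and LAP preB-ALL 4, 4 of 35 members passed as lower, beside 3.11% of all genes, and the median difference was -0.46. Without the tumour labelled LAP B-ALL 4 the median difference was -0.31. There 0 members passed, although 5.49% of all genes were higher and 5.25% lower.

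LAP B-ALL and LAP/Blnk tumours are the groups with the lowest member means. Their median difference was 0.09 (all genes -0.01), with 20 members positive and 15 negative, and 0 members passed, beside 3.52% of all genes. By unadjusted p 2 members were higher and 1 lower, against 11.5% of all genes higher and 10.6% lower. For 5 members LAP B-ALL lay above LAP/Blnk tumours without overlap, against 10.9% of all genes, and for 4 below, against 11.3%. The members' shares without overlap lie near those of all genes, and their shares by unadjusted p lie below them. Rrp12 stood at -0.49, -0.40, -0.86 and -0.66 in LAP B-ALL, against 0.33, 0.17 and 0.60 in LAP/Blnk tumours (difference -0.97 ± 0.27, SE; limma adjusted p = 0.0637). Polr1a stood at 0.45, -0.11, -0.04 and -0.04 in LAP B-ALL, against -0.44, -0.57 and -0.82 in LAP/Blnk tumours (0.68 ± 0.29). Nop16 stood at 0.16, -0.03, -0.39 and -0.45 in LAP B-ALL, against -0.75, -0.47 and -0.84 in LAP/Blnk tumours (0.51 ± 0.35). All 3 genes were without overlap, Rrp12 lower and the other two higher in LAP B-ALL. Genes of chromosome 19 other than Rrp12 had a median difference of -0.30 here, and their part in the Rrp12 difference was not tested. Of other lists the assembly factor genes Noc3l (-1.16) and Trmt112 (-1.05), Mrpl16 (-0.71), Eif4ebp2 (-0.84), the mitotic genes Bub1b (-1.03) and Cdc20 (-0.77) and Klrb1c (-3.30) fell. Noc3l, Trmt112 and Mrpl16 lie on chromosome 19 as well, and its part in their differences was not tested. The erythroid genes Alas2 (6.001) and Hba-a1 (5.77) and the macrophage receptor gene Marco (5.58) rose. Erythroid markers lay higher in LAP B-ALL in 7 of 7 genes (median difference 4.69), granulocyte markers in 12 of 12 (2.00) and monocyte and macrophage markers in 12 of 12 (1.72), and their part was not tested. Without the tumour labelled LAP B-ALL 4 the median difference of members was 0.03, and without Blnk tumour 5 and LAP preB-ALL 4, 1 of 35 members passed as lower, beside 2.98% of all genes.

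Over the 4 tumour groups, the mean of a member was highest in LAP preB-ALL for 23 members, in Blnk tumours for 11 and in LAP/Blnk tumours for Rrp12 alone. It was lowest in LAP/Blnk tumours for 20 and in LAP B-ALL for 15. The 6 tumour comparisons share samples and are not independent of each other.

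LAP was introduced into BKO408 cells and carried as a transgene in LAP/Blnk tumours. LAP/Blnk minus Blnk tumours and LAP minus control cells are called LAP effects here. The term names group differences whose cause was not tested. The LAP effect in tumours less that in cells was tested in 1 fit. For 34 of 35 members the difference was lower in tumours, with a median of -0.53 (all genes -0.01). No member passed, beside 1.05% of all genes, and 13 were lower by limma's unadjusted p and 0 higher, against 7.07% of all genes lower. Srm differed by -0.58 ± 0.33 (SE) between LAP/Blnk and Blnk tumours and by 0.46 ± 0.03 between LAP and control cells, so that the effects differed by -1.04 ± 0.29 (limma adjusted p = 0.112). The SE of this difference and that of its tumour part come from different fits. The tumour part was fitted on all tumours, and the difference was fitted with the cell arrays but without LAP preB-ALL and LAP B-ALL. Why the SE of the difference is the smaller one for Srm was not tested. For Nop16 the LAP effects were -0.77 ± 0.34 in tumours and 0.22 ± 0.03 in cells, a difference of -0.99 ± 0.40 (adjusted p = 0.297). For Grwd1 they were -0.55 ± 0.23 in tumours and 0.42 ± 0.04 in cells, a difference of -0.97 ± 0.27 (adjusted p = 0.115). Without Blnk tumour 5, 7 of 35 members passed as lower in tumours, Srm and Grwd1 among them (-1.24 and -1.10), beside 2.30% of all genes, and without Blnk tumour 3, 2 passed, beside 1.09%. Granulocyte and monocyte markers had a lower LAP effect in tumours in 12 of 12 genes each (medians -0.58 and -0.88), and their part was not tested. Rps6, a ribosomal protein gene, had a higher LAP effect in tumours (0.43), and Prps1 (-0.60), for nucleotide synthesis, and Lyz2 (-1.87) a lower one. Blnk tumours 3 and 5 are those with the lowest member medians of their group.

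**Figure D5:**
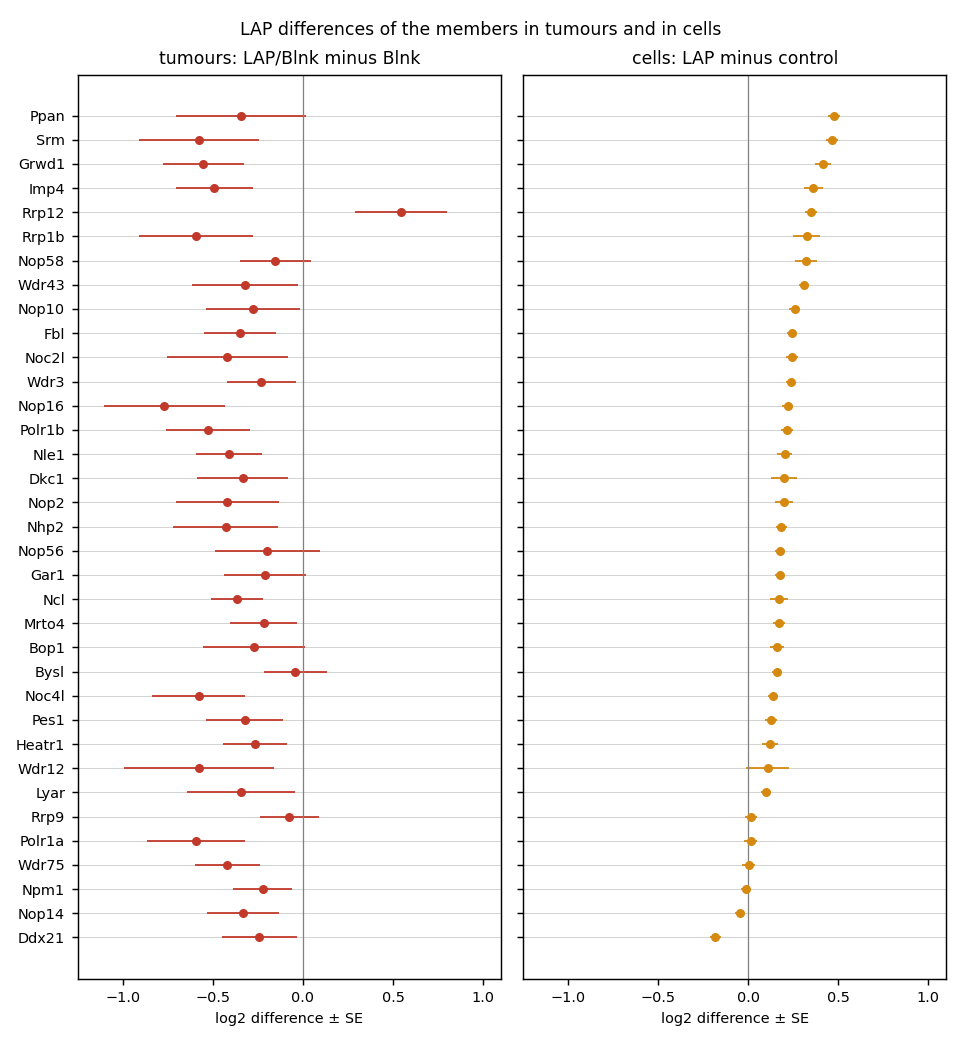
Log2 difference with its SE of each measured member between LAP/Blnk (n = 3) and Blnk tumours (n = 5) on the left and between BKO408 cells with LAP and control cells (n = 4 each) on the right, in the order of the differences in cells. Almost all points lie left of 0 in tumours, with Rrp12 the exception, and right of 0 in cells, and the SE is several times wider in tumours.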

How the data were processed

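RNA of 24 samples was hybridised to Affymetrix arrays, per the labels. The submitters' processing notes name MAS5, with no version. The authors deposited log ratios, taken here as log2 although no source used here states the base. Each of 45141 probe sets has a median of 0 over the cell-line arrays (8) and a median of 0 over the tumours (16), so no level, intensity or detection call is left and no filter on low values was possible. Earlier scaling is unknown here.

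Probe sets were named from a platform annotation of 2016: 28898 had 1 symbol, 551 several and 15692 none. Each of 17097 genes was tested on 1 probe set, that of largest spread once cell-line and tumour arrays were each centred on their mean, groups ignored. Names and chromosomes were checked against the RefSeq table of GRCm38.p6, which 28689 probe sets matched. Comparisons used limma 3.58.1 under R 4.3.3 (linear model, moderated two-sided test, Benjamini-Hochberg over all genes, threshold 0.05). Cell-line arrays were fitted alone, all 16 tumours together, and 4 groups together for the difference of LAP effects. The fit was tested on simulated data. The number of arrays limits the precision.

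Members and lists were chosen with earlier results of these data known. Values per sample are given for the 4 members with the largest and the 4 with the smallest or most negative changes in cells and, in each tumour comparison, for the members past the threshold or, where fewer than 3 passed, the 3 with the largest differences. Of other lists the 2 largest genes past the threshold are named, with Myc and Mycn always. Alternatives are given in the closing section.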

Additional observations from a re-analysis of the deposited data

Results flagged for a closer look

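In 5 of 180 series of values (a measured member, or the members' median, in a group of 4 or 5 samples) 1 sample lay far from the others. Chance alone gives about 1 in 20. Polr1a stood at 0.45 in LAP B-ALL 1, while the other LAP B-ALL lay between -0.11 and -0.04. Polr1b stood at -0.044 in the tumour labelled LAP B-ALL 4, with the others at 0.04 to 0.05. Dkc1 stood at -0.058 in LAP B-ALL 1, with the others at -0.32 to -0.30. Wdr75 stood at 0.44 in LAP preB-ALL 1, with the others between -0.01 and 0.04. Ppan stood at -0.27 in control BKO408 array 3, with the other control arrays at -0.21.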

How the results depend on the processing

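In BKO408 cells 22 to 25 members rose when single arrays were left out, beside 1450 to 1730 of all genes. The fewest rose without LAP array 3, and 25 rose and 1 fell with a replicate block (1651 and 1776 of all genes). No member passed in either direction (0 higher, 0 lower) with all 24 arrays in 1 fit, where cells and tumours share 1 estimate of the spread and 16 and 5 of all genes passed. The mean of all probe sets gave 0 lower members (2048 of all genes), and a test of only the more variable genes a median difference of 0.20. The rises of Lyar and Ncl were each lost in 6 of 8 fits without 1 array, with limma adjusted p up to 0.0911 for Lyar and 0.103 for Ncl. In LAP/Blnk tumours against LAP preB-ALL the count of lower members was 0 with the mean of probe sets (91 of all genes lower) or quantile normalisation (144). It was also 0 with the replicate block (0 of all genes) or only the groups compared (10). The count was 4 with array weights (201 of all genes) or with all probe sets, and 2 without Blnk tumour 5 and LAP preB-ALL 4 (116). It was 0 to 1 when single tumours were left out (12 to 106 of all genes). LAP B-ALL against LAP preB-ALL gave 3 lower without both tumours (138 of all genes). LAP B-ALL against Blnk tumours gave 10 lower with array weights (1815 of all genes) and 4 without both tumours (531). It gave 0 to 3 when single tumours were left out, the 3 without Blnk tumour 5 (297). LAP B-ALL against LAP/Blnk tumours gave 1 higher and 2 lower with array weights (2078 and 1985 of all genes), 1 higher and 1 lower with the replicate block (1398 and 1282), 2 lower with only the groups compared (429) and 1 lower without both tumours (510). The difference of LAP effects gave 11 lower with array weights (428 of all genes) and 3 with the replicate block (280). It gave 0 to 7 when single tumours were left out, the 7 without Blnk tumour 5 (394). LAP preB-ALL is not in this fit, so leaving out both tumours is the same run as leaving out Blnk tumour 5. The cause of these changes was not tested. No called difference changed sign in an alternative run that gave 1 value per gene. The test of all probe sets was not compared gene by gene, and in it the other probe set of Ddx21 passed as higher. Same-numbered samples share only a number: the correlations of their deviations were not all over 0.1 in any comparison and ran from -0.028 to 0.264 in cells. Of 477 values that answer a comparison 446 were classed as near the value reported and 31 as moved. A median was near if it moved by less than the SD of member medians within groups, a wide margin among tumours. In LAP preB-ALL against Blnk tumours it ran from 0.02 to 0.33 when single tumours were left out, always classed as near. Counts that stayed at 0 were also classed as near, so this tally says little about stability. Of 860 values of single genes, 71 changed their side of the threshold. The wide spread of 3 to 5 tumours a group limits what can be called, and centred ratios hide how strongly any member is expressed.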
